A study of Mus musculus with 3 samples.

Results

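The windows described here are stretches of the mouse autosomes that carried CpG methylation in wild-type spermatogonia and almost none in spermatogonia without Dnmt3l. Cutting the autosomes every 100 kb gave 24639 windows, and 23820 of them had at least 100 methylation calls in each of 3 libraries. A window was kept when its methylation level (methylated calls divided by all calls at its CpG sites) was at most 0.1 in Dnmt3L KO and at least 0.6 in WT. This selected 513 windows, 2.15% of those with enough calls, and they are called the selected windows below. The WT and Dnmt3L KO levels of these windows, and the difference between those levels, are therefore the values that chose them and are given only as a description.

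The 3 libraries came from FACS-purified spermatogonia of C57BL6/J mice at postnatal day 7, sorted with an antibody against the surface protein EpCAM, and were WT, Pld6 KO and Dnmt3L KO. Each genotype is 1 sample, called a library here and made by PBAT, in which adaptors are added after bisulfite treatment. No difference between genotypes therefore has a replicate check, and no test between them was made. The intervals given (95% Wilson) cover at most counting error, since they treat calls on 1 read as independent. Neither mutation was limited to one cell type. The study's methods count Pld6+/- and Dnmt3l+/- mice as WT beside Pld6+/+ and speak of biological replicates, but the labels give 1 sample per genotype, and whether its file pools several mice is not given in the sources used here. The files held 43757722 calls for WT, 64076569 for Pld6 KO and 19289688 for Dnmt3L KO, with levels over all sites of 0.703, 0.722 and 0.301. The mapped calls fitted the genotype labels. Exon 1 of Pld6 had 90 WT calls, 40 Dnmt3L KO calls and 0 Pld6 KO calls, and the span from exon 4 to exon 9 of Dnmt3l had 68 WT calls, 150 Pld6 KO calls and 0 Dnmt3L KO calls. The imprint control region upstream of H19, which male germ cells methylate, stood at 0.859 in WT and 0.884 in Pld6 KO, and at 0.148 in Dnmt3L KO. Around the start of Kcnq1ot1, which male germ cells leave unmethylated, the levels were 0.0780, 0.0700 and 0.0154 (WT, Pld6 KO, Dnmt3L KO). Other imprinted starts were read in the same order. Mest stood at 0.02, 0.122 and 0, Peg3 at 0.0726, 0.0377 and 0, and Plagl1 at 0.0118, 0.0643 and 0. The annotated start of Snrpn held only 6 CpG sites, against 26 to 78 at the other imprinted starts. Whether it covers the imprinted region was not tested. Unlike at the others, 2 of 2 WT calls and 4 of 7 Pld6 KO calls there were methylated. Those calls are too few to give a level, and Dnmt3L KO had 0 calls at Snrpn. A level in sorted cells averages over cells and alleles, so partial methylation in all cells and full methylation in some cannot be told apart.

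In the male germ line DNA methylation is erased in the primordial germ cells of the embryo and laid down again before birth, in cells called prospermatogonia. DNMT3L has no catalytic activity of its own and stimulates the de novo DNA methyltransferases that do this work, binding nucleosomes whose histone H3 lacks methylation at lysine 4. PLD6 sits on the outer mitochondrial membrane and takes part in making piRNAs, small RNAs that lead the silencing machinery, DNA methylation included, to retrotransposons such as LINE-1 (L1) and the endogenous retroviruses.

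The sequences below show some of the sequence that calls in these windows were made on. They were picked for their many calls and are not typical in composition. Their GC content was 50.5% to 61.9%, against a median of 37.3% for the selected windows. From 4 of the 5 selected windows with the lowest Dnmt3L KO level, the 200 bases with the most calls in the least covered library are printed from the top strand of GRCm38.p6, 5′ to 3′, with each CpG site in capitals. The last sequence is a copy of the 5′ part of the A-type L1 (L1Md_A) that lies in another selected window.
chr8:101340347-101340546: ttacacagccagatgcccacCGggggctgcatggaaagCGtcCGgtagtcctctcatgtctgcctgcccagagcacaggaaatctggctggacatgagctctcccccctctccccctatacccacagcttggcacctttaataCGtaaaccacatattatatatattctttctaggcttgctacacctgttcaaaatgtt
chr16:60884378-60884577: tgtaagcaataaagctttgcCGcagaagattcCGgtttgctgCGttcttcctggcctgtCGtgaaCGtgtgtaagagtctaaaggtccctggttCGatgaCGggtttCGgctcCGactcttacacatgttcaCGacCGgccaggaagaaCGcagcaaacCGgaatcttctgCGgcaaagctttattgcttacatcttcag
chr16:60730215-60730414: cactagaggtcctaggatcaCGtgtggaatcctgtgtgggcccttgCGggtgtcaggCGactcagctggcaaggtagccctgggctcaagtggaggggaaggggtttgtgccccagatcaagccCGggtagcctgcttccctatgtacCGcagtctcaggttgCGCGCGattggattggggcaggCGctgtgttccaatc
chr10:129596525-129596724: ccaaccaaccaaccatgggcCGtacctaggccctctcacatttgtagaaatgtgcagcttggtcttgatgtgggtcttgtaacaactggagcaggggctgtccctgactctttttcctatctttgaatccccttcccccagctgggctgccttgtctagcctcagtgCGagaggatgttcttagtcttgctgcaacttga
chr16:15442099-15442308: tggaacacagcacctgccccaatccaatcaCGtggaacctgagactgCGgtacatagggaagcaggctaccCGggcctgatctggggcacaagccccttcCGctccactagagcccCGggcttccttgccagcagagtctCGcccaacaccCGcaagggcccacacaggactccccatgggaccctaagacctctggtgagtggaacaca
The stretch on chromosome 8 holds only 4 CpG sites, read as methylated in 4 of 20 calls in WT and 12 of 23 in Pld6 KO, beside 0 of 8 in Dnmt3L KO, where the interval reached 0.324. The calls of the other 4 are given in the same order, WT before Pld6 KO before Dnmt3L KO. The first stretch on chromosome 16 has 14 CpG sites and was methylated in 19 of 25, 11 of 13 and 1 of 10 calls. The second stretch on chromosome 16 is wholly soft-masked (in lower case in the reference, which marks repeats) and aligned to the L1Md_A sequence on the opposite strand at 85.0% identity over 206 bases. It was methylated in 24 of 27 calls in WT and in 10 of 50 in Pld6 KO, with 0 of 21 in Dnmt3L KO (interval up to 0.155). The stretch on chromosome 10 lies in a cluster of olfactory receptor genes and has 2 CpG sites, with 6 of 8, 9 of 9 and 0 of 8 calls methylated. The L1Md_A copy has 7 CpG sites, with 14 of 15, 7 of 15 and 1 of 14 calls methylated. A low level in Dnmt3L KO was shared by all 5 stretches. In Pld6 KO the 5 stretches were unlike each other: both L1 stretches were lower than in WT and the other 3 were not. Calls at neighbouring sites of a stretch can come from the same read. The counts therefore rest on few molecules, and their intervals are too narrow.

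As selected, the 513 windows ranged from 0.6 to 0.842 in WT, with a median of 0.691. In Dnmt3L KO they ranged from 0.0213 to 0.1, with a median of 0.0853, against a median of 0.274 over all 23820 windows. The windows were not a separate group on this scale. The Dnmt3L KO level was above 0.09 in 179 of them and at most 0.05 in 18. The 5 windows just inside the limit had Dnmt3L KO levels between 0.0997 and 0.1, and the 5 just outside between 0.1003 and 0.1004. The median window had 310 calls in Dnmt3L KO, so single windows are imprecise there, and in 63 windows the upper end of the 95% interval was also at or under 0.1. A further 470 windows were at most 0.1 in Dnmt3L KO but below 0.6 in WT and were not counted.

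**Figure D1:**
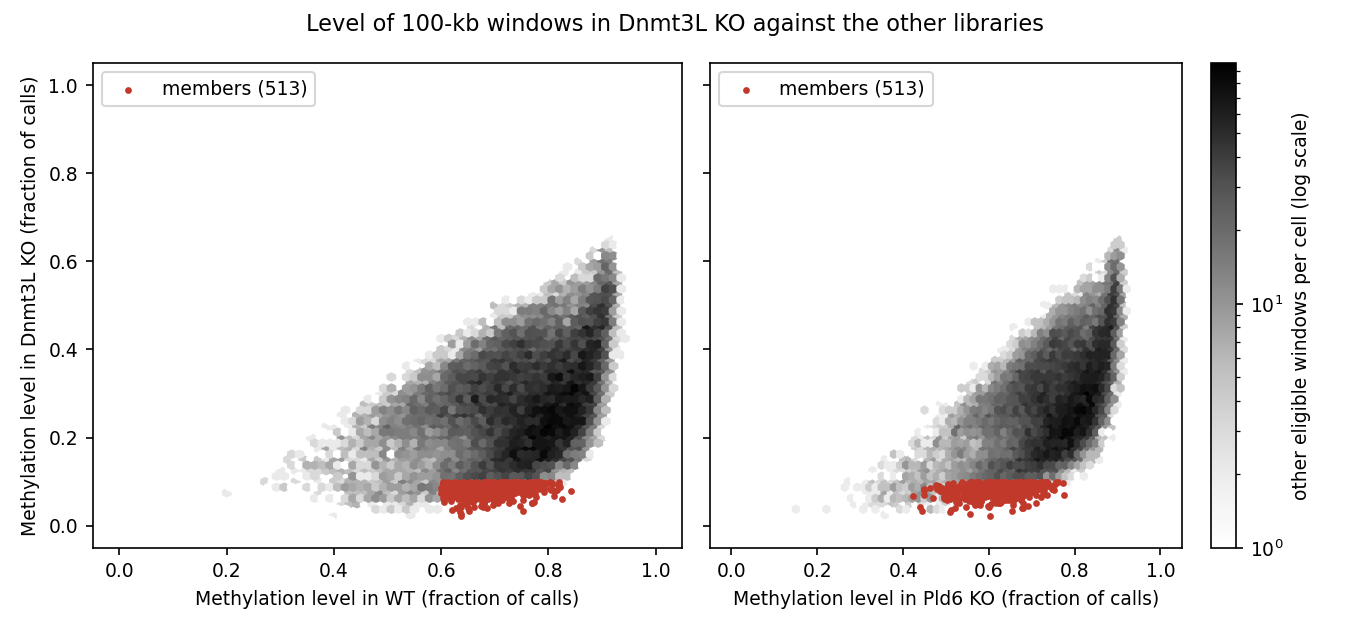
Each panel plots the methylation level of the 100-kb windows in Dnmt3L KO (vertical axis, fraction of calls) against WT (left) or Pld6 KO (right). Red points are the 513 selected windows and grey cells are counts of the other 23307 windows on a log scale. The red points lie along the lower edge of one continuous cloud, between 0.6 and 0.842 in WT and between 0.424 and 0.775 in Pld6 KO.

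The lowest of all was the window chr8:101300001-101400000, which overlaps no annotated gene. It had 5 methylated calls of 235 in Dnmt3L KO, a level of 0.0213 (interval 0.00912 to 0.0488), beside 280 of 439 in WT and 389 of 646 in Pld6 KO. Next came chr18:90100001-90200000 at 0.0268 and the adjacent pair chr16:60800001-60900000 at 0.0310 and chr16:60700001-60800000 at 0.0333, none of which overlaps a protein-coding gene. After these came chr10:129500001-129600000 at 0.0336, which holds the olfactory receptor genes Olfr790, Olfr791, Olfr792 and Olfr794, and its WT level of 0.752 was the highest of these 5. The selected windows with the most Dnmt3L KO calls were chr8:19700001-19800000 with 63 methylated of 765, which holds 4930467E23Rik, chr9:3200001-3300000 with 61 of 763, and chr13:68100001-68200000 with 43 of 675. Those 3 were less extreme, at 0.0824, 0.0799 and 0.0637.

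Cut into 10-kb tiles, the windows gave 4051 tiles with at least 20 calls in each library. The rule limits the level of the whole window, so most of its tiles had to be low in Dnmt3L KO, and these values are a description. The tiles' Dnmt3L KO median was 0.0714, 493 tiles stood at exactly 0, and 27 were at 0.3 or more. The highest of those, chr8:62800001-62810000, had 9 methylated calls of 22 in Dnmt3L KO and 53 of 71 in WT. In WT only 15 tiles were under 0.3. The level that was left in Dnmt3L KO varied with the bases next to the site: it was 0.109 (0.105 to 0.112) where the CpG was preceded by G and 0.0672 (0.0649 to 0.0695) where it was preceded by T, while in WT these sites stood at 0.704 and 0.670. The other 23307 windows shared this order in Dnmt3L KO, with 0.354 after G and 0.270 after T.

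The selected windows were poor in G and C and rich in repeats. Their median GC content was 37.3% against 41.5% over all windows, and 235 of 513 (45.8%) belonged to the decile of windows with the lowest GC. Membership fell with GC from 9.85% of windows in that lowest decile to 5.21% and 2.98% in the next 2 deciles, and 1 window of 2382 in the highest decile was selected. The soft-masked share of the reference sequence set them apart further. Its median was 50.4% against 31.5%, and 510 of 513 (99.4%) lay above the median window. No window of the least soft-masked decile was selected, against 307, or 12.9%, of the most soft-masked decile.

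At similar GC, membership also went with the soft-masked share. Within the lowest GC decile alone, selected windows made up 0.628% of the quintile with the least soft-masked sequence, 7.97% of the middle quintile and 22.4% of the quintile with the most. Across those same 5 groups the median Dnmt3L KO level went from 0.205 to 0.112 and the median WT level from 0.784 to 0.6995. CpG sites were also sparse, with a median of 5.08 per kb against 7.82. The reference does not name the repeats it masks, so this share mixes L1, endogenous retroviruses, SINEs and simple repeats. Among the selected windows themselves GC (Pearson's r = 0.0584) and soft-masked share (r = -0.0410) had little relation to the Dnmt3L KO level over the narrow range selected, whereas over all windows r was 0.579 and -0.667 (n = 23820). These are correlations across windows of 1 library, which share depth and base composition and are not replicates.

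**Figure D2:**
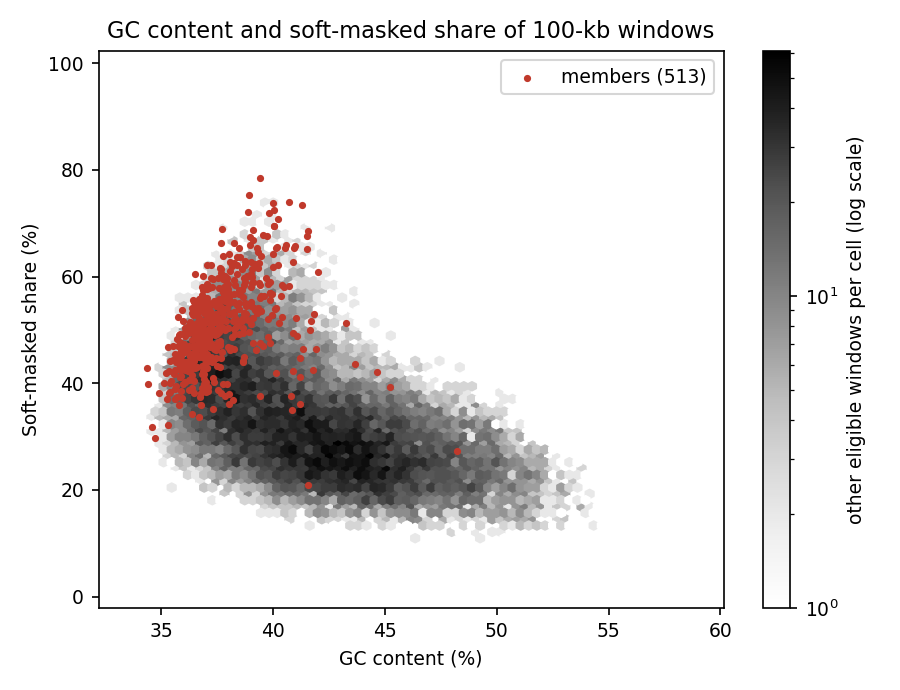
Soft-masked share (vertical axis, percent) is plotted against GC content (horizontal axis, percent) for 100-kb windows, with the 513 selected windows in red and counts of the other windows in grey on a log scale. The red points fill the corner of low GC and high soft-masked share, around medians of 37.3% and 50.4%, and the lone point at 48.2% GC is the snoRNA cluster on chromosome 7.

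Along the chromosomes the windows were scattered but not evenly. Of the 513, 176 (34.3%) lay directly beside another, where 3.90% of all windows lay beside one. That share moved with the thresholds, from 6.35% of 63 windows when the upper end of the interval also had to be at most 0.1 to 70.7% of 2243 windows with the limit set at 0.15. They formed 337 single windows, 56 pairs, 12 runs of 3 and 7 runs of 4. The runs of 4 were chr1:49100001-49500000, chr1:112500001-112900000, chr3:4200001-4600000, chr4:38400001-38800000, chr8:101000001-101400000, chr17:39900001-40300000 and chr18:90100001-90500000. Pooled over a run, the Dnmt3L KO level was lowest in the run on chromosome 8, at 0.0636 of 1037 calls, and highest in chr1:112500001-112900000, at 0.0907 of 1235 calls. Of the 7 runs only the one on chromosome 17 overlaps protein-coding genes, namely Crisp1 and Crisp3, which encode secreted proteins of the male reproductive tract and other glands, Esp38, an exocrine gland secreted peptide, and Pgk2, the phosphoglycerate kinase of late male germ cells. Allowing 1 other window inside a run joined 7 windows in chr2:98500001-99500000 and 7 in chr4:38100001-39000000.

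On the scale of 10 Mb, 142 of 256 stretches held at least 1 such window. The 13 stretches with 10 or more held 143 of the 513, and the densest was chr1:110000001-120000000 with 15 of 100 windows. By chromosome, the share went from 3.51% on chromosome 3, 3.48% on chromosome 1 and 3.43% on chromosome 14 to 0.515% on chromosome 19 and 0.336% on chromosome 11, whose median GC of 43.8% was the highest of the autosomes. The surroundings of these windows had low levels in Dnmt3L KO as well. Windows directly beside one had a median of 0.134, those 5 windows away 0.181, those 10 away 0.225, and those more than 20 away 0.307. The WT medians at the same distances were 0.701, 0.749, 0.766 and 0.775.

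**Figure D3:**
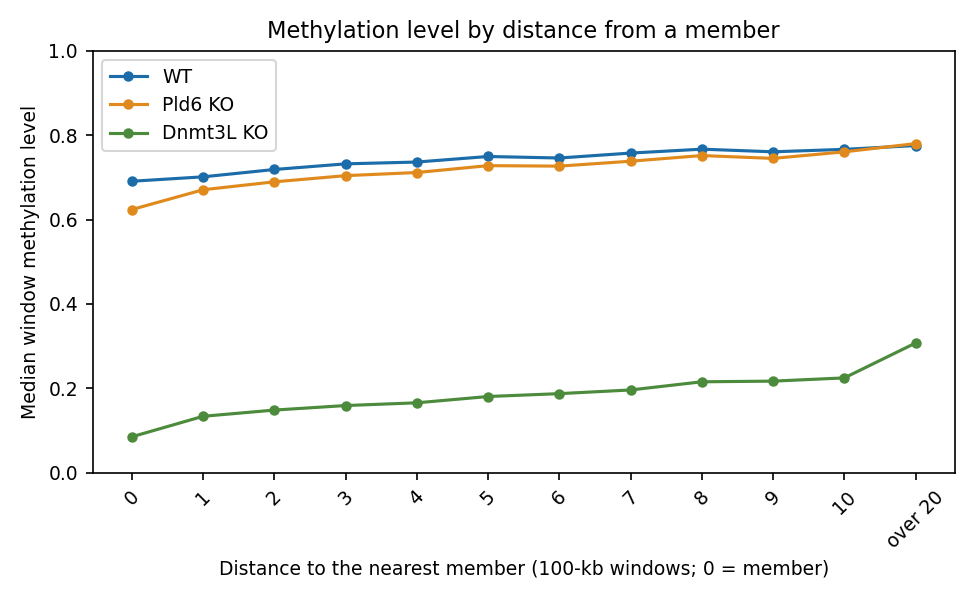
Median methylation level of 100-kb windows (vertical axis, fraction of calls) by distance to the nearest selected window (horizontal axis, in windows; 0 is such a window, and distances of 11 to 20 are not drawn) in WT, Pld6 KO and Dnmt3L KO. The Dnmt3L KO line goes from 0.0853 at 0 through 0.134 at 1 to 0.307 beyond 20, and the value at 0 is set by the selection.

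The selected windows held few genes. Of 20287 protein-coding gene starts in windows with enough calls, 196 (0.966%) fell in them, fewer than their 2.15% share of the windows. For long non-coding RNA genes the share was 44 of 12245 (0.359%), for tRNA genes 0 of 386, and for microRNA genes 1 of 1136. Pseudogenes had the opposite pattern, with 243 of 8591 starts (2.83%). No protein-coding gene started in 423 of the 513 (82.5%), and 232 (45.2%) overlapped no annotated gene of any kind. Other windows of the lowest GC decile also held few genes, and 41.8% of them overlapped no annotated gene. No protein-coding gene started in 89.5% of them (interval 88.2% to 90.8%), more than in the selected windows (78.9% to 85.5%). Without a gene start of any kind were 62.5% of them (60.5% to 64.6%) and 51.1% of the selected windows (46.8% to 55.4%). A lack of gene starts was thus not particular to the selected windows. In the other direction, 77.4% of the selected windows lay outside protein-coding gene bodies (interval 73.6% to 80.8%), against 66.1% of the others of that decile (64.0% to 68.0%).

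The protein-coding genes that did start there came mostly from tandem families used by tissues other than the testis. Olfactory receptors (Olfr) gave 79 starts in 24 windows on 8 chromosomes, 7.16% of the 1103 in windows with enough calls. Among the vomeronasal pheromone receptors, 10 of 171 Vmn1r genes (5.85%) started in 4 windows and 11 of 109 Vmn2r genes (10.1%) in 7. The 2 families with the highest shares sat in few windows: 12 of 25 prolactin-family genes (48.0%), most of them placental hormones, in 5 windows of chromosome 13, and 11 of 24 alpha-defensins (45.8%), peptides of the Paneth cells of the gut, in 3 windows of chromosome 8. Genes of one cluster share their windows, so these counts are not independent. By window, 7.14% of the 336 with Olfr starts, 4.82% of those with Vmn1r starts and 8.05% of those with Vmn2r starts were selected. These shares were below the 9.85% of all windows in the lowest GC decile. The other windows with Olfr starts had a median Dnmt3L KO level of 0.163, beside 0.161 in the other windows of that decile. No start lay there for 384 zinc-finger (Zfp), 92 potassium-channel (Kcn), 67 protocadherin (Pcdh) or 39 Hox genes, but their intervals reached 0.990%, 4.01%, 5.42% and 8.97%, above the 0.966% of all protein-coding starts.

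Of the 5 windows with prolactin-family starts, 4 lay in the cluster between 27100001 and 27900000 on chromosome 13, Prl3d2, Prl3d3 and Prl3c1 being its first genes there, and the other, chr13:13100001-13200000, holds Prl2c5 far from it. As selected, the 5 had Dnmt3L KO levels from 0.0421 to 0.0747, and the other windows with starts of the family had a median of 0.129. Within 500 bp of the 12 starts, 101 of 129 Pld6 KO calls were methylated, beside 72 of 87 in WT and 3 of 43 in Dnmt3L KO. The olfactory receptor starts were at 0.525 (0.486 to 0.564) in WT and 0.564 (0.529 to 0.599) in Pld6 KO, and at 0.0862 (0.0603 to 0.122) in Dnmt3L KO, from Olfr362, Olfr365, Olfr1053 and Olfr1054 on chromosome 2 onwards. The Vmn1r starts (Vmn1r22, Vmn1r23, Vmn1r24 and Vmn1r25 first) were methylated in 53 of 75, 63 of 86 and 1 of 33 calls, and the Vmn2r starts (Vmn2r14 and Vmn2r15 on chromosome 5 among them) in 43 of 64, 58 of 82 and 1 of 21. Around the alpha-defensin starts, such as Defa30, Defa22, Defa31 and Defa41, only 5, 14 and 3 calls were mapped, too few to give a level. Reads that match several places are not in the files, and how alike the copies of these genes are was not measured. Why so few calls were mapped there was not tested.

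Some starts in selected windows were little methylated in WT, unlike the windows around them. Of the 59 starts with at least 5 calls in WT and in Dnmt3L KO, 17 (28.8%) were under 0.2 in WT, compared with 13087 of 17514 (74.7%) in the other windows. The 3 genes described next are among the 17 and were picked for mention after their values were seen. Clvs2, a lipid-binding protein of neurons that lies wholly inside these windows, had 0 of 70 methylated calls in WT and 6 of 113 in Pld6 KO, with 0 of 20 in Dnmt3L KO, within 500 bp of its start. Glra3, a glycine receptor subunit, had 1 of 53, 0 of 53 and 0 of 30. Pgk2, which male germ cells switch on in meiosis, had 1 of 35, 12 of 58 and 0 of 19, and its WT and Pld6 KO intervals overlapped. Pooled over the 196 starts, WT stood at 0.374, Pld6 KO at 0.391 and Dnmt3L KO at 0.0556, with a median of 4.5 CpG sites per start, where the other 20091 starts had 40 and stood at 0.0589, 0.0751 and 0.0239. The protein-coding genes with the longest stretches inside these windows were Gm7133 with 137307 bases and Clvs2 with 112399. A further 9 were tied at 100000 bases, the length of 1 window: 2210408I21Rik, A26c3, Brinp3, the cadherin gene Cdh18, the ephrin receptor gene Epha5, the serotonin receptor gene Htr1f, Luzp2, Spock3 and Zfp804b. A ranking by bases inside favours long genes. Over its whole body Epha5, of which 27.5% lies inside, had levels of 0.661, 0.656 and 0.113 in the same order, and Clvs2 had 0.713, 0.669 and 0.0951.

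The Pld6 KO library was not used to choose the windows, but the WT level it is set against was. The differences from WT below therefore contain a value that the rule used and are given as a description. The median level of the windows in Pld6 KO was 0.624, from 0.424 to 0.775. Pooled over all calls the Pld6 KO level was 0.618 (0.616 to 0.619) against 0.690 (0.689 to 0.692) in WT. Pld6 KO was below WT in 473 of the 513 windows (92.2%), where 46.6% of all 23820 windows were lower. It was below by at least 0.1 in 158 (30.8%), against a background of 2.8%, and above by at least 0.1 in 0 of 513, against 0.424%. The share lower by at least 0.1 was 13.6% without soft-masked sites, against 1.20% of all windows, and 17.1% with the Dnmt3L KO limit set at 0.15. The median difference, Pld6 KO minus WT, was -0.0721 in these windows and +0.0031 over all windows. In 263 of the 513 windows the Pld6 KO interval lay wholly below the WT interval, and in 1 it lay above. The same count was not made over all windows, so it has no background here. All 513 windows kept a Pld6 KO level of at least 0.424.

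Since the rule asks for a WT level of at least 0.6, WT and Pld6 KO were also compared at matched WT levels. Between 0.65 and 0.70 in WT, the median difference was -0.0590 in selected windows, -0.0039 in other windows of the lowest GC decile and +0.0250 in all other windows. Between 0.75 and 0.80 the same values were -0.0933, -0.0138 and +0.0045. The difference was negative for the selected windows in each of the 5 bands from 0.60 to 0.85, with 88.8% to 100% of windows lower. The limit of 0.1 in Dnmt3L KO marked no step in this. Among windows with WT of at least 0.6, Pld6 KO was lower in 79.7% of the 1730 windows with Dnmt3L KO levels above 0.1 and up to 0.15, in 63.9% of those between 0.15 and 0.2, and in 49.8% of those between 0.2 and 0.25.

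**Figure D4:**
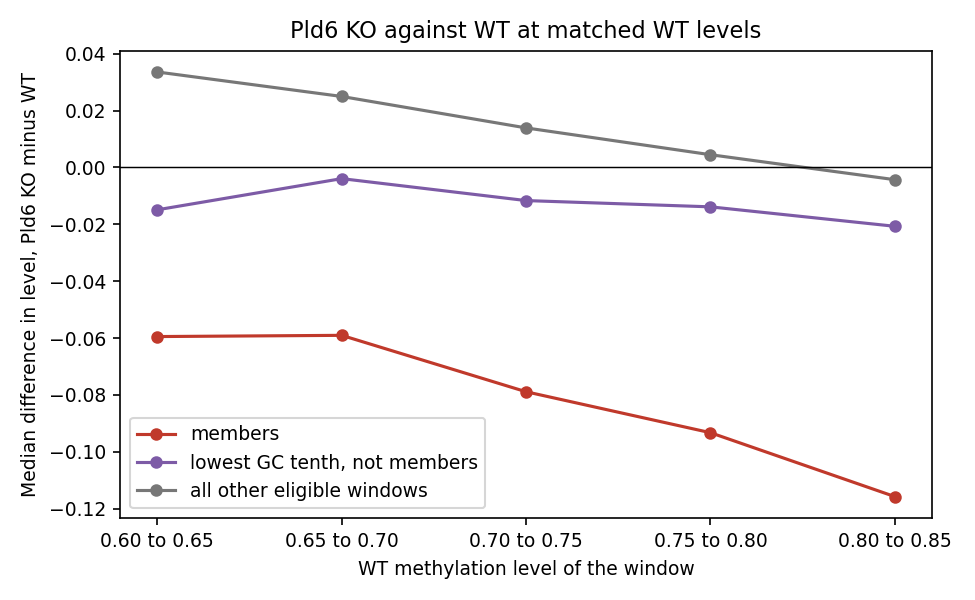
Median difference in methylation level between Pld6 KO and WT (vertical axis, Pld6 KO minus WT) for windows in 5 bands of WT level (horizontal axis), for the selected windows, other windows of the lowest GC decile, and all other windows. The selected windows are the lowest line in every band, from -0.0595 in the first band to -0.116 in the last, which holds 16 of them.

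The largest negative difference was in chr4:79700001-79800000, from 0.650 in WT (428 of 658 calls) to 0.424 in Pld6 KO (378 of 892), in a window without a gene. In chr2:99300001-99400000 the level went from 0.664 to 0.448. The third, chr7:59800001-59900000, was the most GC-rich of the 513 at 48.2% and lies in an imprinted domain, where it holds an array of Snord116 snoRNA genes inside the long RNA Snhg14. WT stood at 0.719 there, Pld6 KO at 0.505 and Dnmt3L KO at 0.0927, with 256, 315 and 151 calls. Its soft-masked share was 27.2%, among the lowest of the 513. At the other end, chr17:92100001-92200000 stood higher in Pld6 KO, 0.698 against 0.620, and its intervals (0.578 to 0.661 and 0.662 to 0.731) did not overlap. In chr14:112500001-112600000, with 0.680 in WT and 0.736 in Pld6 KO, and chr7:47800001-47900000, with 0.684 and 0.738, the intervals overlapped.

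Within the selected windows the difference between Pld6 KO and WT was concentrated at CpG sites with other CpG sites close by. At isolated sites, with no other within 100 bp, the pooled levels were 0.721 in WT and 0.697 in Pld6 KO. At sites with 5 to 9 CpG sites within 100 bp, themselves included, they were 0.655 and 0.437, and at sites with 10 or more 0.676 (0.667 to 0.686) and 0.314 (0.307 to 0.321). Dnmt3L KO stood between 0.0584 and 0.0891 at every density. The densest sites in the other 23307 windows had levels of 0.124 (WT), 0.164 (Pld6 KO) and 0.0493 (Dnmt3L KO). Other windows of the lowest GC decile with a WT level of at least 0.6 (n = 1919) had the pattern of the selected windows in weaker form. Their sites with 10 or more CpG sites stood at 0.517 in WT and 0.307 in Pld6 KO, those with 5 to 9 at 0.603 and 0.511, and isolated sites at 0.806 and 0.801. A lower Pld6 KO level at dense sites was therefore shared with GC-poor windows. By masking, soft-masked sites of the selected windows went from 0.692 in WT to 0.572 in Pld6 KO, and sites outside soft-masked sequence from 0.689 to 0.655. In the other GC-poor windows the same values were 0.737 to 0.677 and 0.772 to 0.775.

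**Figure D5:**
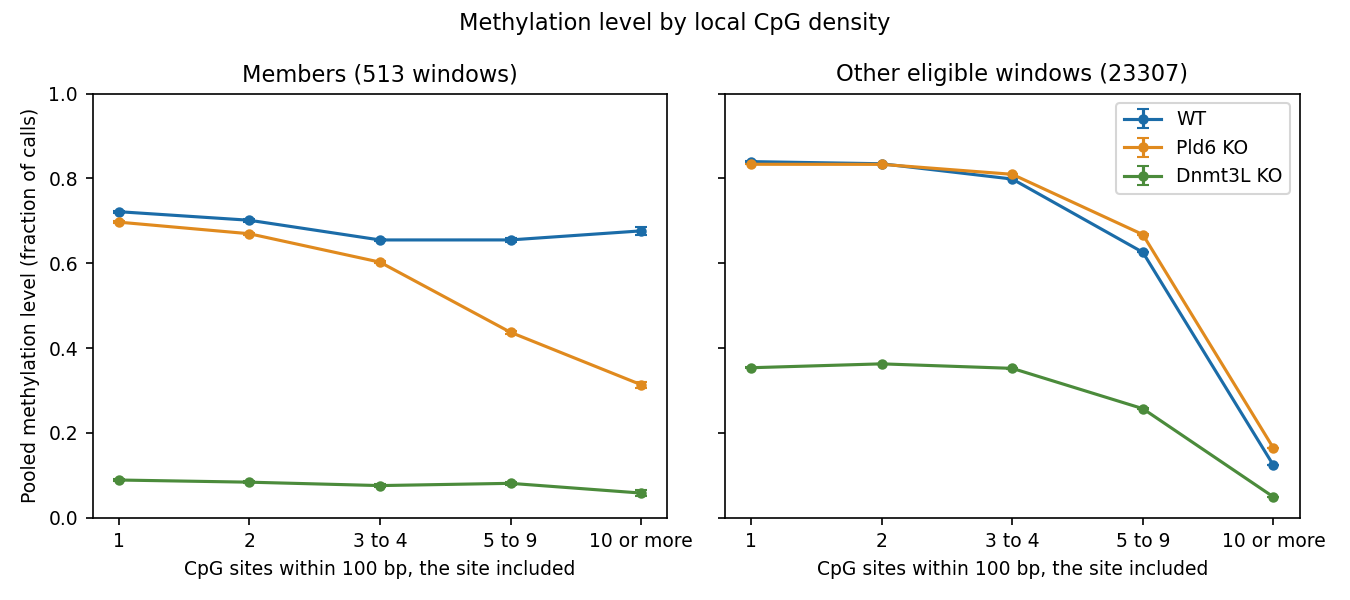
Pooled methylation level (vertical axis, fraction of calls) of CpG sites grouped by the number of CpG sites within 100 bp, the site included (horizontal axis), in WT, Pld6 KO and Dnmt3L KO, for selected windows (left) and the other windows (right); bars are 95% Wilson intervals, mostly smaller than the points. On the left WT stays between 0.655 and 0.721 while Pld6 KO goes from 0.697 to 0.314; on the right WT and Pld6 KO go down together.

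Runs of dense CpG sites (at least 10 sites, each with 10 or more within 100 bp, joined over gaps of up to 200 bp) numbered 670 in the selected windows, and 628 of them (93.7%) were mostly soft-masked, against 37.5% of such runs in other windows. Only 107 had 10 calls in each library. Their median level was 0.778 in WT and 0.170 in Pld6 KO, with 0 in Dnmt3L KO, and Pld6 KO was lower than WT by at least 0.3 in 65 of them. Mostly soft-masked runs in other windows, 2011 with enough calls, had medians of 0.857, 0.405 and 0.0588, and 44.3% were lower by at least 0.3 in Pld6 KO, compared with 73.3% of the 86 such runs in selected windows. This comparison was made after the values by density were seen.

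Some of these runs could be named by matching the amplified retrotransposon sequences of the study's bisulfite PCR to the genome. The 5′ part of L1Md_A, an L1 family that is young and still able to move, matched 97 places in 90 of the selected windows (17.5%), and 7.00% of other windows held a match. Inside these places WT stood at 0.869 (0.849 to 0.887), Pld6 KO at 0.207 (0.188 to 0.227) and Dnmt3L KO at 0.0312 (0.0201 to 0.0483). In the 1752 matches elsewhere it was 0.870, 0.221 and 0.0904, so the copies in and outside these windows were nearly equal in WT and Pld6 KO, and in Dnmt3L KO, the library the selection used, those inside were lower. The ETn long terminal repeat (RLTRETN_Mm), from an endogenous retrovirus family, had 14 matches in 11 selected windows, with 0.839, 0.250 and 0.0397. For the LTR of MERVL (MT2-MERVL), 46 matches gave 0.791, 0.724 and 0.102, with overlapping intervals in WT and Pld6 KO. The IAP LTR (IAPLTR1_MM) had 62 matches at 0.826, 0.765 and 0.279 (0.167 to 0.427), and so kept more methylation in Dnmt3L KO than the windows that hold it. The ETn, MERVL and IAP values in selected windows rest on 43 to 336 calls per library. In the other windows the ETn matches stood at 0.790, 0.403 and 0.137, and the MERVL matches at 0.835, 0.804 and 0.312. The IAP matches there stood at 0.851, 0.670 and 0.244, so their Dnmt3L KO level was similar to that in selected windows. The MMERVK10C sequence had 8 matches in selected windows, at 0.893, 0.565 and 0.176, with only 17 calls in Dnmt3L KO.

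Windows with and without an L1Md_A match both had lower levels in Pld6 KO. The match rests on 1 sequence of 217 bases at 90% identity. A window without it can still hold other L1 sequence or more diverged copies. Of the 670 runs of dense CpG sites, 84 overlapped a match. Windows without a match had 16.5% of their Pld6 KO calls at sites with 5 or more CpG sites within 100 bp. The split therefore does not separate windows with L1 from windows without it. In the 423 without a match the median difference between Pld6 KO and WT was -0.0703 and 28.8% were lower by at least 0.1. In the 90 with a match the median was -0.0767 and 40.0% were lower by that much. With all sites that have 5 or more CpG sites within 100 bp left out, the median difference over the 513 was -0.0340, 404 windows (78.8%) were lower in Pld6 KO and 48 (9.36%) were lower by at least 0.1. A smaller difference of the same direction thus remained at sparse CpG sites of the selected windows. The same shares at sparse sites were not computed over all windows. At isolated sites of the other 23307 windows the pooled levels were 0.839 in WT and 0.833 in Pld6 KO.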

How the data were processed

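Spermatogonia of 3 genotypes were sequenced by PBAT, with 1 sample per genotype. According to the methods of the study and the submitters' processing notes, the authors trimmed both ends of the reads, aligned them with Bismark at its default settings to mm10, used unique regions and deposited a file per library whose columns count the methylated and the unmethylated calls of a CpG and give their ratio as a fraction. Calls were taken from the count columns, and the fraction equalled their ratio at every site. The Bismark version and the treatment of duplicate reads are not given in the sources used here.

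Calls were summed in 100-kb windows of GRCm38.p6, the assembly that mm10 corresponds to, where all sites on chromosomes 1 to 19, X and Y fell on a reference CG. GC content and soft-masked share were read from that sequence, and gene positions from its RefSeq annotation. Window levels carry 95% Wilson intervals (statsmodels 0.14.6), which cover at most counting error. They treat calls as independent, which calls on 1 read are not, so they are too narrow even for that. The rule was tested on simulated windows at these depths with Dnmt3L KO levels far from the limit, which says nothing of windows near it. Retrotransposon sequences were matched with BLAST 2.17.0 at 90% identity over 90% of their length. They were amplicons given by the study with converted bases restored.

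With 1 library per genotype no test was made. The windows named were those with the lowest Dnmt3L KO level, the most Dnmt3L KO calls, a place beside the threshold, the longest runs, and the largest and smallest Pld6 KO differences; the genes named were those in these windows, the 10 with the longest stretch inside and any tied with them, and up to 4 per family with at least 5 starts. The windows, gene families and lists were chosen with earlier results of these data known. Alternatives changed the call minimum, both thresholds, window size and offset, deep sites, soft-masked sites and the averaging. Windows of the sex chromosomes and unplaced sequence were not part of the rule.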

Additional observations from a re-analysis of the deposited data

How the results depend on the processing

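The results were recomputed under 12 other settings and 1 more that was chosen after the data were seen. The number of selected windows followed the thresholds: it was 18 with a Dnmt3L KO level of at most 0.05, 2243 with at most 0.15, 63 with the upper Wilson bound at most 0.1, 220 with a WT level of at least 0.7, and 1554 for 50-kb windows; the other 7 alternatives gave 481 to 743 against 513. The share with a lower level in Pld6 KO stayed between 73.3% and 95.9% in all of them. It was 94.4% and 82.5% at the Dnmt3L KO limits of 0.05 and 0.15, 95.2% with the Wilson bound, 95.9% at WT of at least 0.7, 84.1% in 50-kb windows, 95.2% with the mean of site levels (where 67.7% of all windows were lower), 73.3% without soft-masked sites (35.4% of all windows), and 78.8% without dense CpG sites, the setting chosen later. The share lower by at least 0.1 moved more: 17.1% at the 0.15 limit, 46.0% with the Wilson bound, 26.8% and 39.5% at WT of at least 0.5 and 0.7, 25.8% with windows shifted by 50 kb, 36.2% with the mean of site levels, 13.6% without soft-masked sites (1.20% of all windows) and 9.36% without dense sites. Over all 50-kb windows with enough calls, 49.5% were lower in Pld6 KO and 4.83% were lower by at least 0.1. With the mean of site levels, 3.79% of all windows were lower by at least 0.1. Without dense sites no share of all windows was computed. The share in the lowest GC decile was 40.4% at the 0.15 limit, 50.8% with the Wilson bound and 35.6% in 50-kb windows. The share above the median soft-masked content was 100% at the 0.05 limit and with the Wilson bound, 97.9% at the 0.15 limit and 97.9% in 50-kb windows. The share beside another such window was 11.1% at the 0.05 limit, 70.7% at 0.15, 6.35% with the Wilson bound, 48.6% and 11.8% at WT of at least 0.5 and 0.7, and 42.0% in 50-kb windows. The share without a protein-coding start was 72.2% at the 0.05 limit, 76.7% and 85.9% at WT of at least 0.5 and 0.7, and 88.4% in 50-kb windows. Where no cause is given, the cause was not tested. The call minimum and deep sites moved none of the 7 results beyond its interval. No paired analysis was possible because each genotype has 1 library. The Dnmt3L KO library, with a median of 310 calls per selected window, sets the precision, and windows near the limit can fall on either side of it by counting error.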

Other observations

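On the X chromosome, outside the autosomal rule, 127 of 1451 windows with enough calls (8.75%) met the same thresholds, compared with 2.15% of autosomal windows, and on the Y chromosome 1 of 56 did. The X windows had medians of 0.669 in WT and 0.602 in Pld6 KO, with 0.0818 in Dnmt3L KO, a median GC of 37.5% and a median soft-masked share of 55.4%, close to the autosomal values.

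A further 470 autosomal windows had at most 0.1 in Dnmt3L KO and less than 0.6 in WT. Window medians were 0.498 (WT), 0.438 (Pld6 KO) and 0.0757 (Dnmt3L KO), with a median difference of -0.0467 between Pld6 KO and WT. Pooled over all calls WT and Pld6 KO were at 0.341 each and Dnmt3L KO at 0.0779, but 1 window held 301608 of the 818252 WT calls, where the median window had 663.5.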
